A study of Homo sapiens with 14 samples.

Results

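The short arm of chromosome 9 carries CDKN2A, CDKN2B and ELAVL2, and was described here by chromatin accessibility in 7 groups of SUM149PT cells. Its members were chosen by position: the regions of the deposited table on chromosome 9 that start before 43 Mb of hg38, without those between 27 and 28 Mb, which were not analysed here. They numbered 725 of the 65774 regions of the table. The arm was proposed from values of these data, so runs of regions without signal and shifts along the arm are given as a description, with no test.

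CDKN2A encodes INK4A, an inhibitor of the cyclin-dependent kinases that drive cells into S phase, and, from its other start, ARF, which stabilises p53. CDKN2B, its neighbour, encodes a related kinase inhibitor, and MTAP, beside both, encodes an enzyme that salvages methionine and adenine. The locus is among those most often deleted in human tumours, and losses there frequently take MTAP and part of the interferon cluster along.

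ATAC-seq measures accessibility by letting a transposase place sequencing adapters into open chromatin. SUM149PT is an established inflammatory breast cancer line that the labels give as negative for the oestrogen and progesterone receptors. Parental is the line itself, and the other 6 groups are its clones: E, then EM1 to EM3, then M1 and M2. Each group had 2 libraries and no treatment, and a clone is 1 isolate of the line. What the letters of the clones stand for is not spelled out. Nothing says that the replicates are separate cultures, so p-values measure the spread between these libraries only.

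Library totals ranged from 8138944 to 16786823 counts over all regions. Levels are TMM-scaled CPM (counts divided by the scaled library total), with replicates 1 and 2 in that order, and positions are hg38 as deposited. Intervals are exact 95% Poisson or binomial intervals and, like the floor of 3 counts, cover counting error only. Where a level is given as a percentage of another group, the level of that group is taken as fixed. Its own counting error is then left out of the interval. The libraries of E differed where M2 had signal that Parental lacked. Of 25 members under 0.5 CPM in both Parental libraries and at 2 CPM or more in both of M2, E replicate 1 was above E replicate 2 in 24, with medians of 2.18 and 0.220 CPM. Whether this came from the cells or from the handling of that library was not tested, and it bears on the near-zero members and runs counted for E. In the stretches without signal, levels of E are given for each library. Among the members, 114 (15.7%) overlapped a RefSeq promoter window and 449 lay inside a protein-coding gene. Their median width was 414 bp, against 407 bp for the whole table. A count cannot tell closed chromatin from absent DNA, and in bulk libraries fewer cells with signal and less signal per cell cannot be told apart.

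The promoters of the genes on which the results turn are printed first, so that the absent and the present ones can be compared. They are the RefSeq windows (GRCh38.p14) from 250 bases before to 50 after the start, 5′ to 3′ on the gene's strand, and capitals mark matches on either strand to GGGCGG (SP1), CCGGAAG (ETS), GGAATG (TEAD) or TGANTCA (AP-1). The first 4 had no region in the table. The next 5 overlapped a member, and lie before the stretch without signal (KLHL9), inside it (ELAVL2, TUSC1, PLAA) or after it (ACO1).
MTAP, chr9:21802386-21802685, plus strand: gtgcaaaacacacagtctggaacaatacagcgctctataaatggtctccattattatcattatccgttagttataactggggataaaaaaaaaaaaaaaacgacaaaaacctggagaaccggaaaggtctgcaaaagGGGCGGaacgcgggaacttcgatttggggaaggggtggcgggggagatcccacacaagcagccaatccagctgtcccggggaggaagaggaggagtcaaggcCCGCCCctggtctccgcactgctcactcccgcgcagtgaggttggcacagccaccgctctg
CDKN2A, start of the ARF transcript, chr9:21995275-21995574, minus strand: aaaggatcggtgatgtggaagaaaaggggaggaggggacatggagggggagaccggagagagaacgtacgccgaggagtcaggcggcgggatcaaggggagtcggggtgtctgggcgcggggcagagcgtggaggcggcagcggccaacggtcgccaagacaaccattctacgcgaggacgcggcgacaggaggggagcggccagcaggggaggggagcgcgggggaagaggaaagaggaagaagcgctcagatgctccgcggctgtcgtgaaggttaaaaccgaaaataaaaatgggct
CDKN2A, start of the INK4A transcript, chr9:21974808-21975107, minus strand: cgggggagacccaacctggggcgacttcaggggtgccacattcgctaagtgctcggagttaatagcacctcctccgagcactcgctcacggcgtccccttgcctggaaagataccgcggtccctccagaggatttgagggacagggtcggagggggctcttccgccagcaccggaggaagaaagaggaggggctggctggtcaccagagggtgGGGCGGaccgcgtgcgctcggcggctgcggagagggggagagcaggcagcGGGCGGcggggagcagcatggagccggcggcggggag
CDKN2B, chr9:22009256-22009555, minus strand: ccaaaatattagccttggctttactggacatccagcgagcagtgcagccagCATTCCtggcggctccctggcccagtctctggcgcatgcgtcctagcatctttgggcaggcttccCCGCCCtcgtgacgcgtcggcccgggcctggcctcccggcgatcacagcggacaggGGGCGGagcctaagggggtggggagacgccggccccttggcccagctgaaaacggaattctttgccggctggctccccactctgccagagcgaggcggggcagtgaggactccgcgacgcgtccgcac
KLHL9, chr9:21335355-21335654, minus strand: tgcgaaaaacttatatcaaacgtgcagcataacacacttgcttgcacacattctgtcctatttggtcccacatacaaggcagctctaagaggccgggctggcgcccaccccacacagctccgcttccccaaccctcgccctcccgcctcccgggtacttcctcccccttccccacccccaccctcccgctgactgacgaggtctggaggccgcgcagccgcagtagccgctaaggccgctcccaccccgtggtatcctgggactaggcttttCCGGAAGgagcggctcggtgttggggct
ELAVL2, the start that overlaps a member, chr9:23826191-23826490, minus strand: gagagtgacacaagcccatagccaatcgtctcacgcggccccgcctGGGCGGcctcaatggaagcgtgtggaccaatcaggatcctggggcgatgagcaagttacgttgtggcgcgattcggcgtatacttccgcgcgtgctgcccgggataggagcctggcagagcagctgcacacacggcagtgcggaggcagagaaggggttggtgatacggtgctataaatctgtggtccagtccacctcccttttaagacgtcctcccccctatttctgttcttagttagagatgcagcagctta
TUSC1, chr9:25678395-25678694, minus strand: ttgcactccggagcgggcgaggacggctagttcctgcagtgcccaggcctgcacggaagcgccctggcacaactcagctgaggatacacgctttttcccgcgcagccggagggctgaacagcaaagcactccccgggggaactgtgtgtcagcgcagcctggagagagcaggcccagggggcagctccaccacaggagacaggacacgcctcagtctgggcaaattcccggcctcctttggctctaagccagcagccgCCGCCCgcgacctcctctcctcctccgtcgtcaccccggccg
PLAA, chr9:26947193-26947492, minus strand: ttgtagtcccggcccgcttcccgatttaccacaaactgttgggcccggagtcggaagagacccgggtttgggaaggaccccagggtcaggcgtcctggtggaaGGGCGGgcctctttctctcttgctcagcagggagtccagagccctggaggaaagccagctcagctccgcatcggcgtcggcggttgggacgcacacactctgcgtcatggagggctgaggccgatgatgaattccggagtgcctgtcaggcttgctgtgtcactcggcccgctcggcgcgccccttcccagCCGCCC
ACO1, chr9:32384393-32384692, plus strand: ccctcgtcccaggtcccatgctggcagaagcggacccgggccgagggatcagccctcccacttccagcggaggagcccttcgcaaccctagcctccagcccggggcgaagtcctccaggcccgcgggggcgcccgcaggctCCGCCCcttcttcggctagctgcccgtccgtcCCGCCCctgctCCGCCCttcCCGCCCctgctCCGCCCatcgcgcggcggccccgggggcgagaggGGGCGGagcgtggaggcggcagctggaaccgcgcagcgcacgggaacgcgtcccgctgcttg

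The windows of CDKN2A had a GC content of 63.3% at the ARF start and 69.0% at the INK4A start, and that of CDKN2B 67.3%, above the median of 58.7% over the 34943 promoter windows of the table. They held 28, 26 and 25 CG pairs, against a median of 14. The ARF window held none of the searched motifs and the INK4A window 2 matches to GGGCGG, which 44.9% of all windows hold. ELAVL2 had 58.0% GC and 20 CG pairs, and TUSC1 67.0% and 22. None of these windows held TGANTCA (7.72% of all windows do), CCGGAAG stood in that of KLHL9 (10.2% of all) and GGAATG in that of CDKN2B (14% of all). The printed windows with a region ranged from 58.0% (ELAVL2) to 76.3% GC (ACO1), so those of CDKN2A and CDKN2B lay within their range and that of MTAP (53.0%, 15 CG pairs) below it. A match or its absence says nothing about binding.

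No group had a region at CDKN2A, CDKN2B or MTAP. These 3 genes lay whole inside a stretch of 511 kb without a region, between the members at 21591630 to 21591939 and 22103298 to 22103622, and the members on both sides had signal in M2. Over all chromosomes 386 such gaps of 500 kb or more were found, and 48 of them held at least 3 protein-coding genes. A region overlapped a promoter of 58.4% of the 15498 protein-coding genes of the reference table on all chromosomes. Between 21 and 22 Mb it was 1 of 17 genes, KLHL9, and between 22 and 25 Mb 1 of 4, ELAVL2. Before 21 Mb it was 63.5% of 63 genes, and from 31 Mb on 60.0% of 90. The 17 genes between 21 and 22 Mb include type I interferon genes, which lie from 21077104 to 21482313, before the stretch of 511 kb. That share is therefore not a measure of the stretch alone. The table lists only regions that were called, so a gap holds no count. The deletion of CDKN2A by which this arm is known here was therefore not measured at the gene itself in any group.

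Longer gaps followed. DMRTA1, which encodes a transcription factor of the DMRT family, lay in a gap of 1621 kb, and IZUMO3, of a family of sperm proteins, in one of 1851 kb. The type I interferon genes between MLLT3 and MTAP encode antiviral cytokines, and 0 of 16 had a region within 1 kb in any group. MIR31 (21512115 to 21512185) had no region either. It lies between the last member with signal in Parental and the first without, and its mature strand is shown for that position, with the seed in capitals.
hsa-miR-31-5p, minus strand: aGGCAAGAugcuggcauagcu

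Signal ended abruptly on the way to CDKN2A. The member at 21506843 to 21507155, between the interferon genes and MTAP, stood at 4.53 and 5.43 CPM in Parental, 7.40 and 9.33 in E, and between 2.92 and 7.65 in the libraries of EM1, EM2, EM3 and M1. M2 had 0.229 and 0.153 CPM there. At the next member the order was turned round: M2 was high and the other groups, E aside, were at 0.

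From there to ELAVL2 lay 5 members, and outside M2 and E none of them had any count (10 libraries). M2 had 750 and 1113 counts over them (85.9 and 85.1 CPM), and E had 134 and 14 (16.3 and 1.54 CPM). With a floor of 3 counts over both libraries of a group, M2 was at least 649-fold higher than Parental, 728-fold than EM1, 735-fold than EM2, 774-fold than EM3 and 699-fold than M1. E replicate 1 held 19.0% of the M2 level (95% interval 16.0 to 22.5) and E replicate 2 held 1.8% (0.984 to 3.02). What E showed here thus came mostly from its replicate 1, while replicate 2 was low but not without counts.

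ELAVL2 encodes a neuronal RNA-binding protein, and the member over a promoter inside the gene (23826226 to 23826627) was the strongest of the 5. It had 39.5 and 31.7 CPM in M2, 8.37 and 0.220 in E, and 0 in the other 10 libraries. M2 was at least 265-fold higher than Parental there and at least 285-fold higher than M1. The other 4 members of the stretch lay between 7.33 and 18.4 CPM in the M2 libraries. One lies inside ELAVL2 (23769573 to 23769875; 8.02 and 14 CPM in M2). Another pair lies beyond CDKN2B, at 22103298 to 22103622 (12.6 and 14.3) and 22148217 to 22148477 (7.33 and 8.79), and the first stands before MTAP, at 21591630 to 21591939 (18.4 and 16.3). All 5 were separate in M2 from the 10 libraries at 0. The table lists only called regions, so members without a count in those 10 stand in it through signal in M2 or E. Neither their separation in M2 nor the fold values is therefore a test of a difference.

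**Figure D1:**
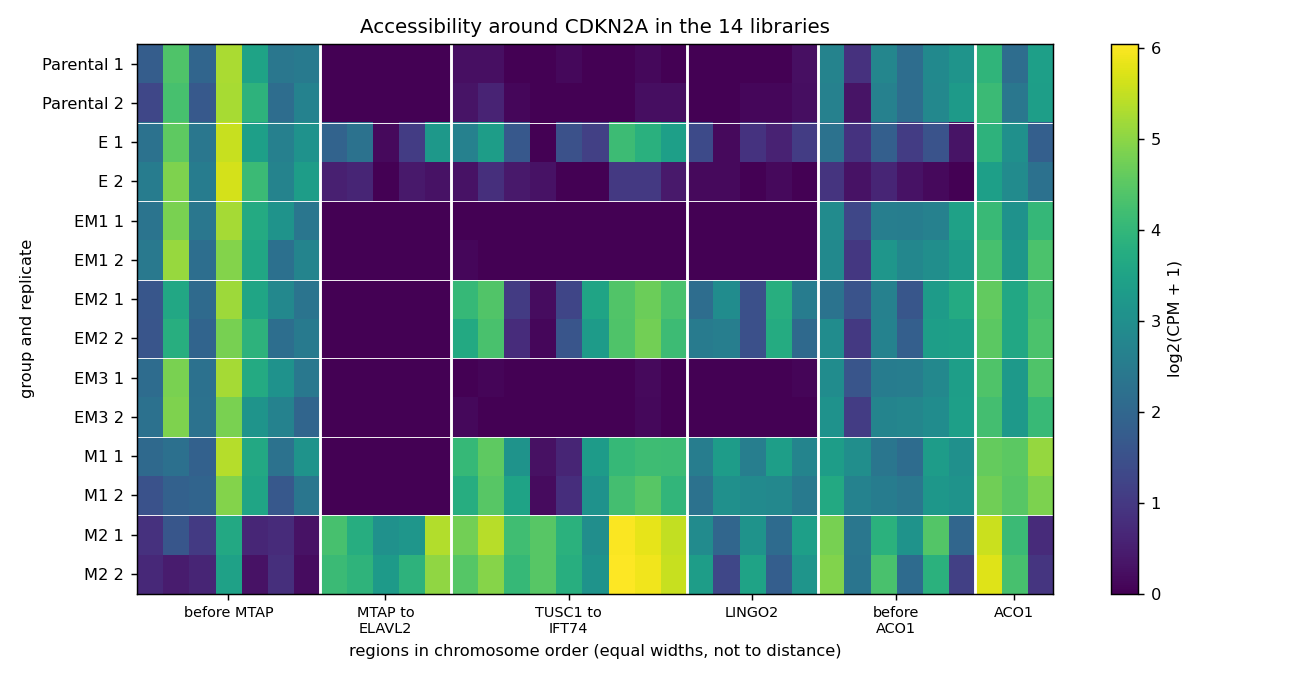
Accessibility, as log2(CPM + 1) on a colour scale, of the members from the interferon genes to ACO1 (columns, in chromosome order) in the 14 libraries (rows, 2 a group). White lines part the stretches: the 5 members from MTAP to ELAVL2 are dark in all but M2 and E, and the next 14 are dark in Parental, EM1 and EM3 and, but for 26776746 in EM2 and M1, brighter in EM2, M1 and M2.

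The stretch without signal reached further in 3 groups than in the others. A member was called near zero in a group when both its libraries were under 0.5 CPM while some group had a mean of at least 2 CPM, and 3 or more in a row made a run. In EM2 and M1 the run ended with ELAVL2 (5 members, 2235 kb). In EM1 and EM3 it went on over TUSC1, CAAP1, PLAA and IFT74 (14 members, 21591630 to 26956718, 5365 kb), and a further run of 5 members covered LINGO2 from 28213012 to 29333075. Parental had the same stretches except for the TUSC1 promoter, which at 0.181 and 0.509 CPM stood just above the limit, so that they counted as 3 runs of 6, 7 and 5 members. Outside the arm, the longest run was 6 members in each of Parental, EM1, EM2 and EM3, 17 in M1 and 16 in M2, and E had none. The members nearest the limit in Parental were at 0.453 (inside) and 0.509 (outside) in their higher library.

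Over the 9 members from TUSC1 to IFT74, EM2 had 1461 and 1342 counts, M1 980 and 1608, and M2 2518 and 3617. As summed levels these were 113 and 105 CPM, 104 and 106 CPM, and 288 and 276 CPM. Parental had 6 and 14 counts, EM1 0 and 1, and EM3 3 and 2. Parental thus held 0.807% of the EM2 level (0.493 to 1.25), EM3 0.169% (0.055 to 0.395) and EM1 0.036% (0.000911 to 0.201). Pooled over both libraries, the intervals of Parental and EM1 did not overlap, but these cover counting error only. By library, the interval of Parental replicate 1 (0.2 to 1.18 CPM) overlapped those of EM1 (0 to 0.328 and 0.00177 to 0.388 CPM). M1 reached 97.1% of EM2 (93.4 to 101) and M2 259% (252 to 265). E was again unlike in its libraries: replicate 1 had 490 counts, 21.1% of M2 (19.3 to 23.1), and replicate 2 had 35, or 1.37% (0.952 to 1.9).

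TUSC1, named as a candidate tumour suppressor, had a promoter member (25678190 to 25678721) at 20.1 and 18.8 CPM in EM2, 22.2 and 21.3 in M1 and 41.1 and 29.7 in M2. Parental stood at 0.181 and 0.509, EM1 at 0 in both, and EM3 at 0.0579 and 0. EM2 was 55.5-fold above Parental by its counts (27.9 to 129). PLAA, a ubiquitin-binding protein, shares its promoter member with IFT74, a subunit of intraflagellar transport (26946781 to 26947643). It had 24.9 and 25.9 CPM in EM2, 17.0 and 21.3 in M1, 55.5 and 58.7 in M2, and at most 0.170 in the libraries of Parental, EM1 and EM3. CAAP1 encodes an inhibitor of caspase activation, and the member inside it (26892264 to 26892971) had no count in Parental, EM1 or EM3. EM2 (20.0 and 19.9 CPM) was at least 151-fold above Parental, M1 (15.5 and 17.8) at least 129-fold, and M2 (62.8 and 64.8) at least 487-fold. The members of this stretch, and those at LINGO2 below, had few or no counts in Parental, EM1 and EM3. They thus stand in the table mainly through signal in the other groups. Neither the percentages nor the fold values here, with their intervals, are therefore a test of a difference.

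The members before CAAP1 differed among the 3 groups with signal. At 26776746 to 26777013, M2 had 21.2 and 21.1 CPM, while EM2 and M1 lay between 0.0779 and 0.213. At 26265252 to 26265623, M1 (7.55 and 10.4) and M2 (17.2 and 15.4) stood above EM2 (1.08 and 0.701). The member at 26809844 to 26810158 had the reverse order, with 10.6 and 8.96 in EM2, 8.93 and 7.40 in M1 and 6.87 and 7.64 in M2. So the level of a member in this stretch varied by clone, and these differences between clones were not tested.

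LINGO2 encodes a leucine-rich repeat membrane protein of the nervous system, and 4 members lay inside it, with 1 more beyond (29332679 to 29333075). Over the 5, EM2 had 383 and 343 counts, M1 321 and 424, and M2 262 and 411. Parental had 2 and 4, EM1 none, EM3 1 and 0, and E 34 and 3. The 3 groups with signal lay close in their sum, at 29.5 and 26.7 CPM in EM2, 34.1 and 28 in M1 and 30.0 and 31.4 in M2, and further apart in its parts. The member at 28365139 to 28365621 had 12.8 and 12.1 CPM in EM2, 9.46 and 6.01 in M1 and 3.32 and 2.52 in M2. That at 28264445 to 28264734 ran the other way, with 1.77 and 1.79 in EM2, 5 and 6.41 in M1 and 7.56 and 10.3 in M2.

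**Figure D2:**
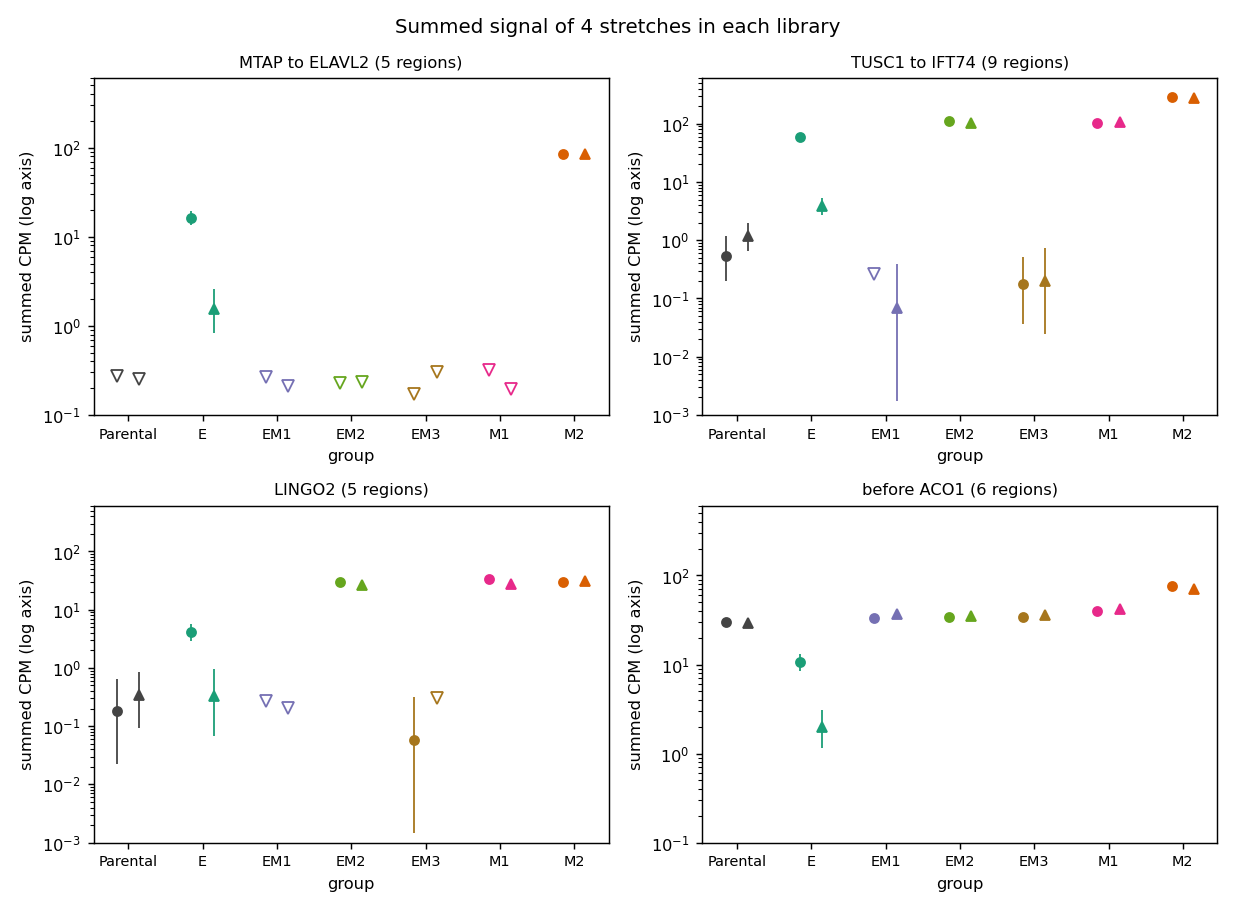
Summed CPM (log axis) of the members of 4 stretches in each library (circle, replicate 1; triangle, replicate 2), with exact 95% Poisson intervals, and open triangles pointing down at the floor of 3 counts where a library had none. M2 stands at 85.9 and 85.1 in the first stretch against 0 counts in 10 libraries, EM2, M1 and M2 stand apart from Parental, EM1 and EM3 in the middle pair, and E is lowest in the last.

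Past the next gap of 1804 kb, signal came back in Parental. The 6 members from 31137155 to 31598371, none of which lies in a protein-coding gene, summed to 29.7 and 29.1 CPM in Parental, 33.1 and 37.0 in EM1, 34.3 and 34.8 in EM2, 33.9 and 36.4 in EM3, and 40.0 and 42.0 in M1. M2 was higher, at 75.2 and 69.7. E was lower than all of them, at 10.6 and 1.98, which are 35.9% and 6.72% of Parental. At 31598048 to 31598371 E had 0.243 and 0 CPM against 7.8 and 8.82 in Parental. At 31185846 to 31186194, a weak member, E (0.849 and 0.220) and Parental (0.816 and 0.255) overlapped. At ACO1, the iron-sensing cytosolic aconitase, the promoter member (32384183 to 32385138) was at 14 and 9.55 CPM in E, 14.6 and 16.3 in Parental and 45.8 and 52.9 in M2. Without E replicate 1, 4 runs of near-zero members appeared on the arm, over 22148217 to 25677931, 26265252 to 26810158, 28213012 to 29333075 and 31372846 to 31598371. With both libraries E had none.

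Counted over the whole arm, near-zero members numbered 30 in Parental (2.63% of all regions of the table), 12 in E (0.426%), 32 in EM1 (2.98%), 15 in EM2 (2.62%), 29 in EM3 (2.42%), 18 in M1 (3.66%) and 106 in M2 (7.34%). As shares of the 725 members they were 4.14%, 1.66%, 4.41%, 2.07%, 4%, 2.48% and 14.6%. E had 39 without its replicate 1, EM2 23 without its replicate 1 and M1 35 without its replicate 1.

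M2, the group with signal from MTAP to ELAVL2, was low on most of the arm before it. In windows of 1 Mb with at least 5 members, a window counted as shifted where the median log2 difference from the Parental mean reached 0.5 in both libraries with the same sign. From 3 to 22 Mb, 18 windows in a row with 411 members were lower in M2, with means from -4.68 to -0.76. Before 3 Mb the windows of M2 were mixed. That from 0 to 1 Mb was lower (-0.56 and -0.73), that from 1 to 2 Mb higher (2.41 and 1.80; 5 members) and that from 2 to 3 Mb not shifted (-0.25 and -0.03). The median over the members from 3 Mb to the last one before MTAP was -1.83 and -1.94 in the 2 libraries. Of these 413, 351 were lower in both M2 libraries than in both Parental libraries and 32 higher, where 42.7% and 41.8% of all regions of the table were. The arm held 0.705% and 0.72% of the counts of the M2 libraries, against 1.07% and 1.12% in Parental and 1.08% to 1.39% in the others.

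**Figure D3:**
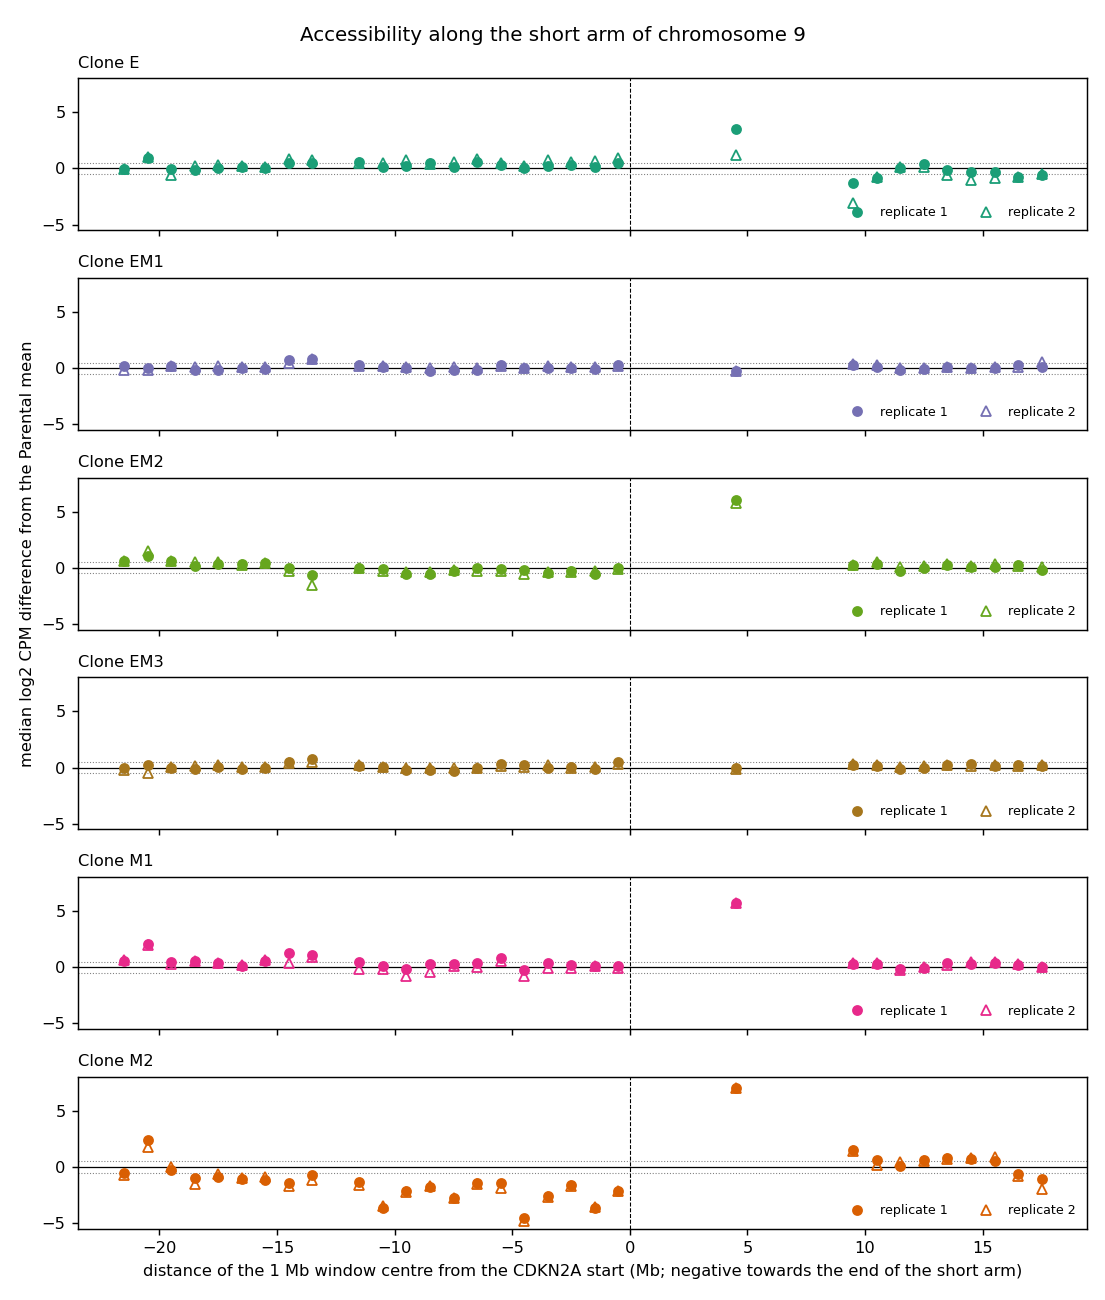
Median log2 CPM difference from the Parental mean in 1 Mb windows with at least 5 members (filled circles, replicate 1; open triangles, replicate 2), against the distance of the window from the CDKN2A start, with dotted lines at 0.5 and -0.5. M2 is below -0.5 in 18 windows in a row before CDKN2A, and the window with CAAP1, PLAA and IFT74, where Parental is near zero, is high in EM2, M1, M2 and E.

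Promoters took part in the lower level of M2. Between 3 Mb and MTAP, 41 of 42 promoter members were lower in both M2 libraries than in both of Parental and 1 was higher, with a median of -1.37. Promoter regions outside the arm had a median of 0.38 in M2 (quartiles -0.19 and 0.82, 10053 regions), with 24.3% lower and 58.6% higher without overlap. For the 371 other members the median was -2.00, against -0.14 for 54996 other regions outside the arm. In E the same 42 promoters had medians of 0.27 and 0.46 in the libraries, with 33 higher and 1 lower. Over all regions 26.8% were higher and 27.3% lower in E, and over the promoters outside the arm 36.3% and 16.3%, with a median of 0.12.

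Housekeeping genes, whose promoters are open in most cells, differed in M2 between the 2 sides of CDKN2A. RPS6, a protein of the small ribosomal subunit (19380121 to 19380631), had a mean of 66.7 CPM in Parental and 35.5 in M2, a log2 difference of -0.91. HAUS6, of the spindle augmin complex, went from 77.2 to 42.6 (-0.86), and PSIP1, a chromatin protein, from 52.5 to 11.6 (-2.17). These 3 were the listed housekeeping genes before CDKN2A. In E, RPS6 stood at 88.3 and 112 CPM, a rise of 0.59 (edgeR quasi-likelihood adjusted p = 0.0184). This call was lost without E replicate 2 or either Parental library, and with only the 4 libraries compared. The other 19 genes lie after CDKN2A and share 16 regions. All 16 were higher in both M2 libraries than in both of Parental, by 0.13 to 1.49 (median 1.00), and 15 were called higher. GNE was read at 36257850 to 36258713, the stronger of its 2 promoter regions on average. The other belongs to a run near zero in M2, given below. Over all regions 41.8% were higher in M2 without overlap and 32.1% of those tested were called higher, and over promoters outside the arm 58.6% were higher without overlap. Of these calls, CLTA was lost without Parental replicate 1, GNE without M2 replicate 2 or Parental replicate 2, EXOSC3 without M2 replicate 2 or Parental replicate 1, and POLR1E without any 1 of the 4 libraries or with library totals in place of TMM. TOPORS and NDUFB6, at 32552233 to 32552710, stood at 10 CPM in Parental and 28.2 in M2. GALT, the enzyme of galactose use, was not called (23.8 and 26.0). In M1 and in E only GNE, of sialic acid synthesis, was called among the 16, higher in M1 and lower in E. The M1 call was lost without M1 replicate 2 or either Parental library, and the E call without E replicate 2 or either Parental library, or with only the 4 libraries compared. EM1, EM2 and EM3 had none called. The rise of M2 after CDKN2A was not shared by all members there. Promoter members had M2 medians of 1.14 (31 to 33 Mb), 0.97 (33 to 35 Mb) and 0.93 (35 to 38 Mb), and the other members 0.40, 0.09 and 0.62. From 38 to 43 Mb the medians were -0.68 and -1.04.

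**Figure D4:**
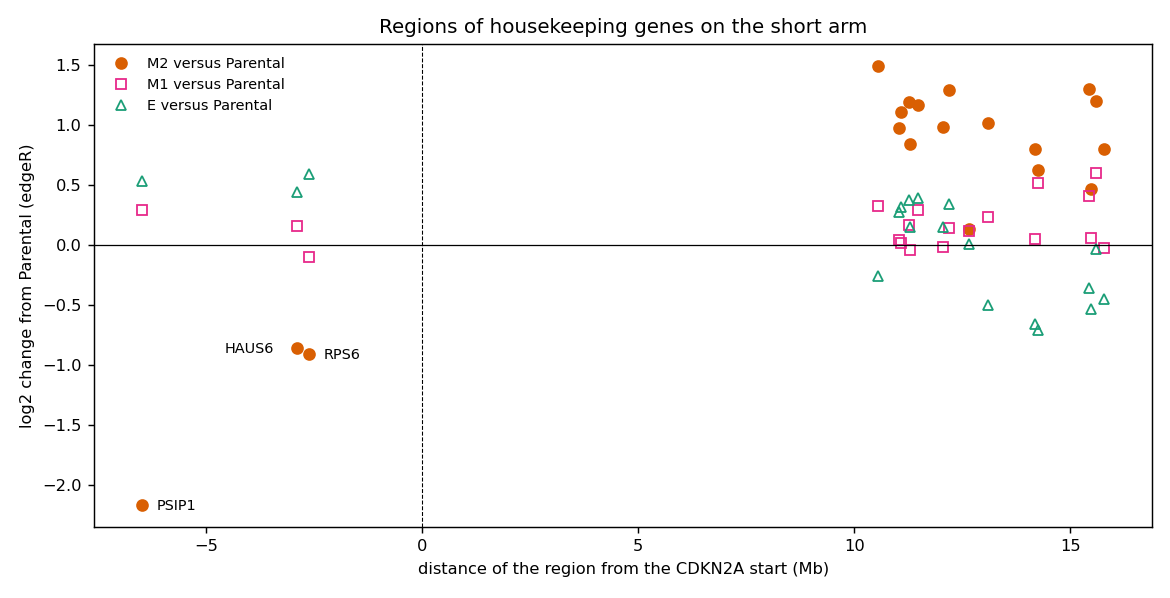
edgeR log2 change from Parental (n = 2 libraries a group) of the regions of the listed housekeeping genes in M2 (filled circles), M1 (squares) and E (triangles), against distance from the CDKN2A start (dashed line). In M2 the 3 regions before it lie at -2.17 to -0.86 and the 16 after it at 0.13 to 1.49.

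M2 also had short runs near zero inside this stretch. There were 8 of them before MTAP, each of 3 to 6 members, while the table held 135 such runs in M2 outside the arm, 29 of them of 5 or more members. A run from 3809731 to 3849077 overlapped GLIS3, a zinc finger transcription factor whose gene begins at 3824127. KDM4C, a histone lysine demethylase, held a run inside it (7045468 to 7146959, 6 members, 8 and 20 counts against 750 and 791 in Parental). PTPRD, a receptor tyrosine phosphatase, was overlapped by 2 runs. That from 8224392 to 8346629 began outside the gene, which spans 8314246 to 10613002. The others lay at 11158108 to 11159847 outside a protein-coding gene, across SH3GL2 and ADAMTSL1, and at SLC24A2 and FOCAD. The ninth, from 36276880 to 36318174, overlapped GNE (36214441 to 36276978) only at the edge of the gene. The member there is a promoter region of GNE, and the run had 6 and 11 counts in M2 against 394 and 418 in Parental. FOCAD had a run near zero at 20760381 to 20921674 (10 and 9 counts against 354 and 436) and a promoter at 20.5 CPM in M2 and 65.9 in Parental.

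Next to the stretch without signal, 3 listed genes had a region at their promoter, and all 3 were low in M2. KLHL9, a substrate adaptor of a cullin ubiquitin ligase (21334893 to 21335610), was at 37.6 CPM in Parental and 10.7 in M2. MLLT3, a reader of acylated histones in the elongation machinery, was at 26.8 and 1.72, and FOCAD, a focal adhesion protein, at 65.9 and 20.5. In E, KLHL9 stood at 45.5 and 49.5 CPM, MLLT3 at 31.2 and 41.8, and FOCAD at 77.8 and 86.8, and none of them was called in E, EM1, EM3 or M1. In EM2, FOCAD was called (-0.49; edgeR quasi-likelihood adjusted p = 0.0431), a call lost without any 1 of the 4 libraries and with only those 4 compared.

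Windows were counted over the whole arm. Of 31 windows, M2 had 6 higher and 21 lower (22.1% and 25% of 2607 windows on all chromosomes), M1 7 and 0 (8.75% and 11.6%), EM2 4 and 1 (1.73% and 5.64%), E 4 and 3 (2.03% and 5.6%), EM1 1 and 0 (1.61% and 0.882%) and EM3 0 and 0 (1.42% and 0.997%). Runs of 2 or more were found at 0 to 3 Mb in EM2 (39 members, means 0.60 to 1.26) and at 0 to 2 Mb in M1 (27 members, 0.58 to 1.97). In M2 windows were higher from 35 to 38 Mb (108 members, 0.70 to 0.72) and lower from 38 to 40 Mb (37 members, -1.53 to -0.72). In E they were lower from 31 to 33 Mb (23 members), at -1.30 and -3.10 in the libraries for the first window and -0.81 and -0.76 for the next. E without its replicate 1 had 18 shifted windows in place of 7, and without replicate 1 or 2 of EM2 that clone had 9 or 8 in place of 5. EM1 had 2 without either of its libraries or Parental replicate 1, and EM3 between 1 and 3 without either of its libraries or Parental replicate 2. The windows nearest the limit were at 0.51 (8 to 9 Mb, E, inside) and 0.49 (21 to 22 Mb, E, outside).

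E and M2 lay on opposite sides of Parental from 35 to 38 Mb and on the same side after it. Over the 108 members from 35 to 38 Mb the median was -0.29 and -0.79 in the E libraries and 0.70 and 0.75 in M2, with 61 members lower and 6 higher in E, and 74 higher and 23 lower in M2, without overlap. The shares over all regions were 27.3% and 26.8% in E, and 41.8% and 42.7% in M2. Over the 45 members from 38 to 43 Mb both were lower, at -0.70 and -0.65 in E and -0.93 and -1.12 in M2. EM1, EM2, EM3 and M1 stayed between 0.05 and 0.31 in both stretches in every library. All of these differences share the Parental libraries.

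Tested region by region, members called by edgeR at an adjusted p under 0.05 were as follows. In M2, 163 were higher and 403 lower (32.1% and 34.9% of the 65771 regions tested). M1 had 168 and 131 (19.0% and 23.4%), E 71 and 65 (5.27% and 6.31%), EM2 49 and 46 (3.02% and 6.17%), EM3 13 and 5 (1.85% and 1.26%), and EM1 1 and 0 (0.341% and 0.287%). All 725 members were tested. The stretches above are part of these counts, so nothing is read from them. The counts of E, EM2, EM3 and EM1 moved with single libraries: E had 28 and 16 calls without Parental replicate 1 or 2, EM2 30 and 43, and 40 and 57 without its own replicates. EM3 had 0 without either Parental library and 2 and 4 without its own, and EM1 had 0 without any 1 of the 4.

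The falls named in this and the next paragraph were picked only among members within 10 kb of a protein-coding gene, with each gene taken once. In M1, a member in KDM4C (7080969 to 7081849) had 32.6 and 31.3 CPM in Parental and 0.638 and 0.264 in M1, a fall of 78.3-fold by its counts (42.3 to 164; edgeR quasi-likelihood adjusted p = 2.45e-07). E was high there, at 42.0 and 69.3, EM2 stood between at 8.09 and 10.3, and M2 was at 0 and 0.153. A member in GLIS3 (3827194 to 3827565) fell 40.2-fold in M1 (24.1 to 72.2; adjusted p = 1.15e-07), from 23.1 and 25.9 CPM to 0.532 and 0.661, and one 2635 bp from UBAP1, an endosomal sorting protein, fell 56.5-fold (21.7 to 209; adjusted p = 4.22e-05). At the KDM4C promoter M1 was not lower, with a mean of 125 CPM against 90.7 in Parental, and at that of UBAP1 it had 17.9 against 16.3. In M2, members in PTPRD (10062458 to 10062953, at least 74.6-fold lower), NFIB (14179520 to 14179812, 579 counts against 1, a ratio of 554, 99.0 to 21907) and MPDZ (13181660 to 13182058, 909 counts against 2, a ratio of 435, 120 to 3594) had the largest differences. These 3 belong to the stretch that was low in M2 and carry no test here.

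EM2 and E had smaller falls, which were called under every alternative tried for the following 4 members. In EM2, a member 2723 bp from LURAP1L (12771851 to 12772297) fell by 2.48 on the log2 scale (4.32 and 6.94 CPM against 27.7 and 35.3; adjusted p = 0.000142). Those in FAM219A (34430868 to 34431260) and BNC2, a zinc finger protein (16704965 to 16705611), fell by 2.38 each (adjusted p = 0.000983 and 0.00268). In E, a member in SHB, an adaptor of receptor tyrosine kinases (37944971 to 37945470), fell by 2.77 (1.70 and 1.21 CPM against 8.80 and 11; adjusted p = 0.000409). The BNC2 member was at 18.8 and 23.5 CPM in EM3, a rise of 1.99 (adjusted p = 0.00776) that was lost without EM3 replicate 2 (0.0536) or Parental replicate 1 (0.114) or 2 (0.0625). In E a member 5255 bp from RCL1 fell by 2.42, a call lost without Parental replicate 2 or with only the 4 libraries compared, and one in FAM240B by 2.05, a call lost without E replicate 1 or either Parental library. The further largest calls of EM3, in IL33 (1.66), MELK (1.62), ADAMTSL1 (-1.77), NFIB (-1.35) and at the GLDC promoter (-0.97), were each lost without any 1 of the 4 libraries, and GLDC also with library totals.

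Among the immune genes near the end of the arm, 6 of 8 listed genes had a region, with RLN1 and RLN2 sharing 1. IL33, an alarmin cytokine (6230162 to 6230754, inside the gene), had 1.54 and 2.04 CPM in Parental and 13.6 and 22.3 in M1, a rise of 3.32 (adjusted p = 1e-05). PDCD1LG2, a ligand of the checkpoint receptor PD-1, rose by 1.83 in M1 (adjusted p = 0.00116). In M2 it was called higher by 1.49, a call lost without M2 replicate 2. At CD274, the other ligand, Parental had a mean of 14.9 and M2 17.0, which was not called, and E rose to 24 and 27.2 CPM (adjusted p = 0.0158), not without either Parental library or with only the 4 libraries compared. The promoter of JAK2, a cytokine receptor kinase, was not called in any clone. RLN1 and RLN2, relaxin hormones, stood at 33.1 CPM in Parental, 7.96 in M2 and 21.9 in M1, where the call was lost without M1 replicate 1 or Parental replicate 2. In M1 the list had 2 genes higher and 2 lower (19.0% and 23.4% of all regions tested), in M2 1 and 2 (32.1% and 34.9%), in E, EM2 and EM3 1 and 0 (5.27%, 3.02% and 1.85% higher), and in EM1 none. The single calls of EM2 and EM3 were IL33, and both were lost on leaving out any 1 of the 4 libraries, that of EM2 also with only those 4 compared.

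Of 11 listed genes of transcription and chromatin, 9 had a region. As in the other lists, a gene with several was read only at the strongest on average. Other members in KDM4C (7080969 to 7081849) and GLIS3 (3827194 to 3827565) fell in M1, as given above. In M2, 5 were lower (KDM4C, UHRF2, NFIB, BNC2 and RFX3), against 34.9% of all regions tested. PAX5, which lies past CDKN2A, was higher, against 32.1%. RFX3 lost its call without either M2 library or Parental replicate 2, and PAX5 without M2 replicate 2 or Parental replicate 1. In M1, 6 genes were higher and none lower at the regions read (19.0% and 23.4% of all regions tested). Of these BNC2, up by 1.02 (adjusted p = 0.000525), kept its call on leaving out each library, and the other 5 lost it. SMARCA2 and UHRF2 did so without M1 replicate 2 or either Parental library, KDM4C without M1 replicate 1 or Parental replicate 2, PAX5 without Parental replicate 1, and GLIS3 without any 1 of the 4. EM2 had 2 higher (SMARCA2 and KDM4C) and E 1 (KDM4C), against 3.02% and 5.27% of all regions tested. All of these calls were lost without either Parental library. SMARCA2 was also lost without EM2 replicate 2, KDM4C in EM2 without EM2 replicate 1, and KDM4C in E without E replicate 1 or with only the 4 libraries compared. EM1 and EM3 had none. Of the 12 listed genes of adhesion, receptors and cytoskeleton, 7 were lower and 4 higher in M2, against 34.9% and 32.1% of all regions tested. Among the 7, MPDZ lost the call without M2 replicate 1, KANK1 without M2 replicate 1 or Parental replicate 2, FREM1 without either M2 library or Parental replicate 1, and SHB without either M2 library or Parental replicate 2, or with only the 4 libraries compared. The 4 included TLN1, the integrin-linking talin (55.1 CPM in Parental, 129 in M2), TPM2, a tropomyosin (9.42 and 22.2), and VLDLR, a lipoprotein receptor near the end of the arm (13.1 and 27.6). VLDLR rose in M1 too, by 1.70 (adjusted p = 2.83e-05), and DOCK8, an exchange factor of small GTPases, fell there by 2.08. The median log2 change of the list was -0.53 in M2, beside -0.0062 over all regions tested, and it was 0.33 in M1, beside 0.01. For the transcription list the medians were -0.91 in M2 and 0.55 in M1.

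As a whole, the arm shifted by a median of -1.06 and -1.11 in the M2 libraries. The other clones were at 0.07 and 0.23 (E), 0.01 and 0.09 (EM1), 0 and 0.06 (EM2), 0.04 and 0.09 (EM3), and 0.25 and 0.17 (M1), and the Parental libraries at -0.03 and 0.03 about their mean. M2 did not overlap any other group, and EM1, EM2 and EM3 lay within 0.1 of Parental. Beyond the short arm, the same chromosome was also lower in M2, with medians of -0.48 and -0.53 in its libraries. There E (-0.25 and -0.24), EM2 (-0.34 and -0.30) and M1 (-0.24 and -0.23) were lower too, while EM1 (0.04 and 0.05) and EM3 (0.08 and 0.11) were not. The fall in M2 was thus not confined to the short arm, though it was larger there.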

How the data were processed

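The count table holds raw counts per region and library as the authors deposited them, in 14 columns whose names match the labels. The build was hg38, and the tools named were featureCounts, MACS2 2.1.1, Bowtie2 2.2.6, cutadapt 1.9.1, deepTools, Picard and bcl2fastq 2.20.0.422, per the submitters' processing notes. How regions were merged and reads filtered: not given in the sources used here. Peak lists were also deposited and were not used, since most of their names disagree with their sample's clone.

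Counts were scaled by TMM and tested over the whole table with edgeR 4.0.16 quasi-likelihood F tests in R 4.3.3 (7 group means over 14 libraries, prior count 2), each clone against Parental, with Benjamini-Hochberg adjustment. The filterByExpr filter (minimum count 10) removed 3 regions and none of the members, with a common biological coefficient of variation of 0.208. Libraries had 8138944 to 16786823 counts. Runs, windows, gaps and intervals were computed in Python 3.11.15 (pandas 2.3.3, SciPy 1.17.1), and neither runs nor gaps cross the part between 27 and 28 Mb, which is not reported here. Genes and promoters came from RefSeq tables of GRCh38.p14.

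The members and lists were chosen with earlier results of these data known. Named were the listed genes with a region within 1 kb (the strongest on average if several), in full where they lie at a run, the 3 largest called rises and falls per clone (libraries apart, at least 2 CPM, gene within 10 kb), and protein-coding genes inside runs or gaps. The alternatives were library totals, DESeq2 1.42.0, no filter, a replicate block, only the 4 libraries compared, other limits, windows and reference, and leaving out each library.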

Additional observations from a re-analysis of the deposited data

Results flagged for a closer look

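Both M2 libraries had an arm median below the Parental mean, while both libraries of E, EM1, EM3 and M1 had one above it. In EM1 and EM3 it was within 0.1 of that mean, and EM1 replicate 1 (0.01) lay inside the range of the Parental libraries (-0.03 to 0.03). The difference of the arm median (log2) was -1.23 between M2 and E, -1.14 between M2 and EM1, -1.15 between M2 and EM3 and -1.29 between M2 and M1. These differences were not tested, because the arm was proposed with these values known, and all of them use the same Parental and M2 libraries. With 2 libraries a group no test for a single outlying library was made. The same chromosome beyond the short arm was also below the Parental mean in both M2 libraries (-0.48 and -0.53).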

How the results depend on the processing

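Of 186 alternative values of the 26 counts and shifts, 120 stayed within 1.5 times the count or 1 SD of the shift (0.06) and 66 did not. The cause was not tested. Members called were 209 (E), 17 (EM1), 150 (EM2) and 54 (EM3) with the replicate block, a pairing by number only. Same-numbered libraries deviated together at correlations of 0.108 (M2) to 0.373 (EM2), over 2 pairs a comparison. With only the 4 libraries compared they were 80 (E), 7 (EM1) and 55 (EM3), by the DESeq2 Wald test 10 (EM1) and 30 (EM3), and with library totals 2 (EM1). Leaving out a library gave 16 to 114 (E), 0 to 0 (EM1), 30 to 57 (EM2) and 0 to 4 (EM3), and 224 to 263 (M1) and 504 to 539 (M2); the lone library is then assumed to vary like the other groups. Library totals moved the median log2 change of all regions in M2 by -0.11 and the arm shift to -1.19.

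Against the mean of the other 6 groups, arm shifts were 0.22 (E), 0.18 (EM1), 0.17 (EM2), 0.21 (EM3), 0.28 (M1) and -1.24 (M2), and without single libraries 0.0715 to 0.2296 in E. Shifted windows with that reference numbered 15 (E), 5 (EM1) and 6 (EM3). With a limit of 0.3 they were 16 (E), 2 (EM1), 11 (EM2), 2 (EM3) and 11 (M1), with windows of 2 Mb 3 (E) and 16 (M2), and with library totals 1 (EM3). Without single libraries they were 7 to 18 (E), 1 to 2 (EM1), 4 to 9 (EM2) and 0 to 3 (EM3). Near-zero members at a limit of 0.25 CPM were 19 (Parental), 5 (E), 8 (EM2), 7 (M1) and 63 (M2), and at 1 CPM 46, 19, 32, 47 and 160. Without single libraries they were 14 to 39 (E), 18 to 23 (EM2) and 19 to 35 (M1). The 11 gaps of 500 kb or more stayed 11 with rows of at least 2 CPM only.

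None of the 94 calls that the naming rule gave reversed. A call is a region in a given clone, so a region called in several clones counts once for each. Of the 94 calls, 52 held in all alternatives, and 31 and 33 were lost without Parental replicate 1 or 2. With 2 libraries a group, a member at 0 counts is limited to a level under 0.174 to 0.364 CPM, by library, and a gap in the table holds no count at all.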
